A study of Mus musculus with 24 samples.

Results

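The comparison described here set the pancreas of mice given sitagliptin against the pancreas of mice given AFFB, an alcohol-free fermented beverage made from blackberry and blueberry. The arrays were chosen by their titles, which name 4 sitagliptin and 4 AFFB arrays among 24, and every probe detected on at least 4 of the 24 arrays was kept, which left 15328 probes. All mice were male C57BL/6J, an inbred strain, bought at 3 weeks of age, caged singly under a reversed light cycle and fed a diet of 60% fat, with RNA taken after 12 weeks of that diet. The sitagliptin group received the drug, as its phosphate, dissolved in drinking water (150 mg/L). The AFFB group drank the beverage in place of water, at 8.4 mg of anthocyanins per kg body weight per day. The control group drank plain water. The remaining 12 arrays came from 3 dose groups of a phenolic extract of AFFB (0.1X, 1X and 3X) and entered the shared estimate of the spread. Each treatment group held 12 mice and is represented by 4 arrays. Whether every array came from its own mouse is not written in the labels, so p-values reflect no more than how these samples varied, and that variation may be technical.

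Sitagliptin inhibits dipeptidyl peptidase IV, the enzyme that degrades the incretin hormones, which are released by the gut after a meal and increase glucose-dependent insulin secretion by islet beta cells. Berry anthocyanins and other phenolic compounds are studied as dietary modulators of blood glucose, and sitagliptin served in this study as the drug control. The pancreas is largely acinar tissue that makes digestive enzymes, with islets forming a small share of its cells, so RNA of the whole organ is dominated by enzyme transcripts.

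The tissue label was checked against marker genes. Of 6 acinar markers 5 were kept, and all 5 were detected on every sitagliptin and AFFB array, with Amy2a5 (pancreatic amylase) at a mean normalized log2 intensity of 14.31 ± 0.07 in the sitagliptin group and 14.24 ± 0.17 in the AFFB group (SD, n = 4 each). Ins2 (insulin), Gcg (glucagon) and Sst (somatostatin) were detected on all 8 arrays. Apoa1, a liver marker, was kept but detected on none of the 8, and the markers Alb, Fabp2 and Vil1 of liver and gut did not pass the probe filter. Median signal was 85.8 to 92.1 on the sitagliptin arrays and 81.3 to 91.8 on the AFFB arrays, and 24.8% to 27.2% of probes were detected in the sitagliptin group against 24.2% to 27.2% in the AFFB group. Arrays are named below by group and replicate number. On the first principal component, sitagliptin 3 stood at 33.7 and AFFB 2 at 38.8, while the other 6 arrays of these groups lay between -13.1 and 2.80.

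No probe passed in the comparison of sitagliptin with AFFB. The count was 0 of 15328 (0%) at a Benjamini-Hochberg adjusted p under 0.05 in the limma fit, and the smallest adjusted p was 0.99989. At an unadjusted p under 0.05 there were 638 probes, 4.16% of those kept, of which 333 (2.17%) were higher and 305 (1.99%) lower with sitagliptin. All 4 sitagliptin arrays lay above all 4 AFFB arrays for 167 probes (1.09%) and below them for 171 (1.12%). Against water, sitagliptin also gave 0 passing probes (0%) with 420 at an unadjusted p under 0.05 in limma, and AFFB gave 0 (0%) with 771.

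The precision of the comparison can be read from its intervals. The standard error of a difference had a median of 0.17 log2 units, and the 95% interval lay within 1 log2 unit of 0 for 14911 probes (97.3%) and within 0.5 units for 8201 (53.5%). Correlations between a sitagliptin and an AFFB array had a median of 0.974 over the kept probes, against 0.968 among sitagliptin arrays and 0.969 among AFFB arrays.

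**Figure D1:**
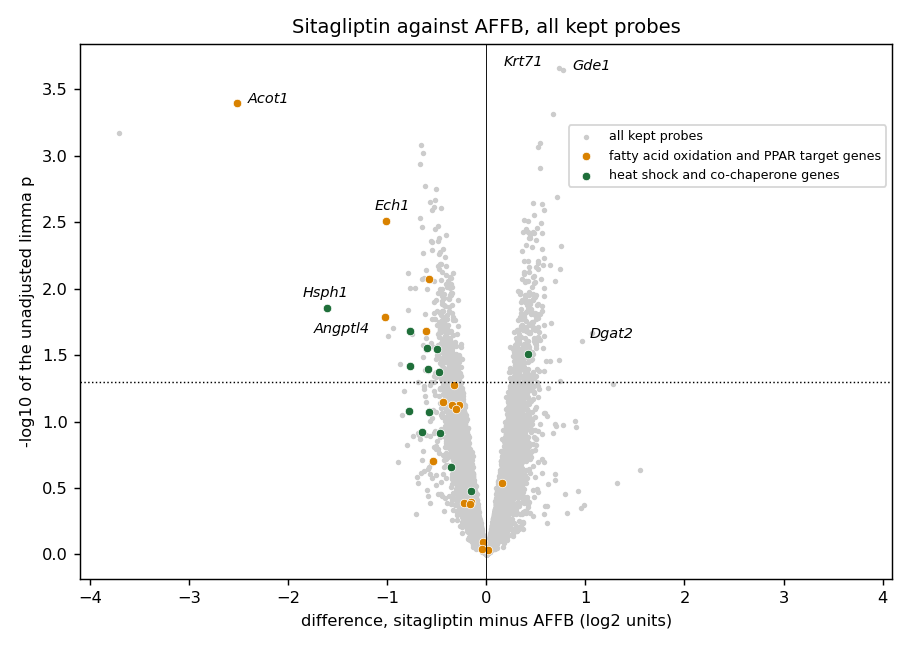
Each point is a kept probe, with the difference (sitagliptin minus AFFB, log2 units) on the horizontal axis and -log10 of the unadjusted limma p on the vertical axis; the dotted line marks an unadjusted p of 0.05. Orange points are the 18 measured fatty acid oxidation and PPAR target genes and green points the 14 heat shock and co-chaperone genes, most of which lie left of 0, and no probe passed after adjustment.

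A difference of more than 1 log2 unit was measured for 9 probes. Of the 5 that were lower with sitagliptin, 4 carry a gene name: Acot1, Hsph1, Angptl4 and Ech1. Of the 4 that were higher, only Mrpl53 is named, and its difference came from a single AFFB array (0.12 without AFFB 1). These 9 were singled out after their values were seen.

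Acot1, a cytosolic thioesterase that releases free fatty acids from acyl-CoA, had the largest difference among named genes. It measured 5.93, 5.17, 6.16 and 4.42 on sitagliptin 1 to 4, and 9.50, 6.93, 7.20 and 8.10 on AFFB 1 to 4. Every sitagliptin array lay below every AFFB array, and sitagliptin 4 was the lowest. The difference was -2.51 ± 0.61 log2 units (SE; adjusted p = 0.99989 in limma), a 5.71-fold lower level. The sitagliptin mean was 0.45 below that of water and the AFFB mean 2.06 above it. In the 0.1X extract group Acot1 ranged from 7.47 to 9.43, while the 1X and 3X group means were 5.82 and 5.51. A second, dimmer Acot1 probe was detected on no sitagliptin array and on 2 AFFB arrays. Acot1 and its neighbouring paralogs are similar in sequence, and cross-hybridisation between them was not tested.

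Ech1 encodes an isomerase needed to oxidise polyunsaturated fatty acids. Its levels were 8.55, 8.34, 9.01 and 7.85 on sitagliptin 1 to 4, and 9.58, 9.42, 9.28 and 9.52 on AFFB 1 to 4. The AFFB arrays were close together and all above the sitagliptin arrays. The difference of -1.01 ± 0.31 did not pass. Ech1 stood 0.19 below water in the sitagliptin group and 0.83 above water in the AFFB group.

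Angptl4, a secreted inhibitor of lipoprotein lipase and a known target of the fatty acid sensing PPAR receptors, gave 4.95, 4.70, 5.24 and 5.18 on sitagliptin 1 to 4, and 6.78, 5.41, 5.52 and 6.46 on AFFB 1 to 4. The groups did not overlap, with AFFB 1 and AFFB 4 the highest. Angptl4 differed by -1.03 ± 0.40, which did not pass.

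The largest difference of all belonged to probe ILMN_1216322, which has no gene name in the annotation used here. It read 6.23, 6.43, 7.10 and 4.44 on sitagliptin 1 to 4, and 10.64, 9.61, 8.85 and 9.95 on AFFB 1 to 4. Its group means were 6.05 ± 1.13 for sitagliptin, 9.76 ± 0.74 for AFFB, 9.98 ± 0.54 for the 0.1X extract, 7.24 ± 2.20 for 1X, 7.05 ± 1.93 for 3X and 7.31 ± 1.96 for water (SD, n = 4 each). The difference of -3.71 ± 0.95 did not pass (adjusted p = 0.99989 in limma), and its adjusted p was 0.0897 when the 8 arrays were fitted alone.

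**Figure D2:**
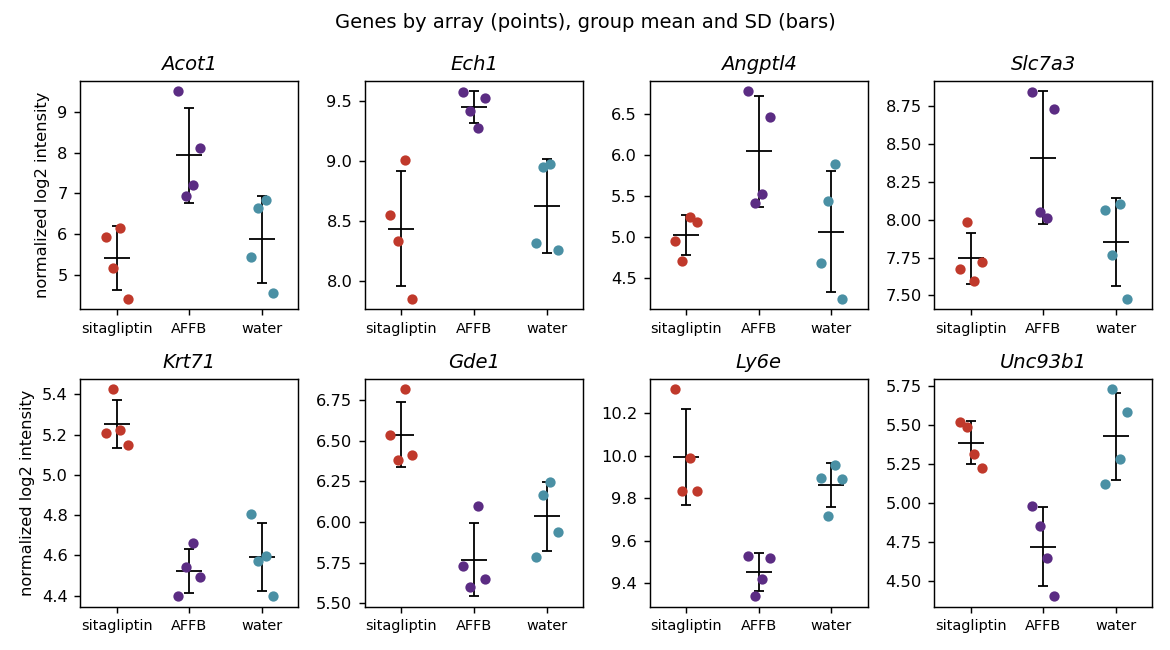
Normalized log2 intensity of 8 genes on each sitagliptin, AFFB and water array (points), with group mean and SD (black bars, n = 4). Acot1, Ech1, Angptl4 and Slc7a3 lie lower in the sitagliptin group and Krt71, Gde1, Ly6e and Unc93b1 higher, with no overlap between sitagliptin and AFFB in these 8 genes, which were chosen for their differences.

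The 24 named genes of smallest unadjusted p included 13 that were higher and 11 that were lower with sitagliptin, with differences of 0.42 to 2.51 log2 units in size, and none passed. They were ranked on this contrast, so their sizes are a description. Sitagliptin and AFFB arrays did not overlap in 19 of the 24 (over all kept probes, 1.09% lay wholly above and 1.12% wholly below). The sitagliptin mean was the nearer to the water mean in 15 of them and the AFFB mean in 9. The same share was not taken over all kept probes, so this count has no background to be read against. Over all kept probes, 771 differed from water with AFFB and 420 with sitagliptin at an unadjusted limma p under 0.05. A further kept probe existed for 16 of the 24 genes, and 16 of these 24 further probes, some of them not detected in 1 or both groups, differed in the same direction.

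Among genes higher with sitagliptin, Krt71, a keratin of the hair follicle's inner root sheath, measured 5.21, 5.43, 5.22 and 5.15 on sitagliptin 1 to 4, and 4.40, 4.54, 4.66 and 4.49 on AFFB 1 to 4. These are low intensities: Krt71 was detected on 4 sitagliptin arrays, 1 AFFB array and 1 water array. The difference was 0.73 ± 0.17, with the sitagliptin mean 0.66 above water and the AFFB mean 0.07 below it.

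Gde1, a membrane glycerophosphodiesterase, was 6.54, 6.38, 6.82 and 6.41 on sitagliptin 1 to 4, and 5.73, 5.60, 6.10 and 5.65 on AFFB 1 to 4. The groups were separate, and all 3 Gde1 probes were higher with sitagliptin, by 0.77 ± 0.18, 0.69 ± 0.24 and 0.51 ± 0.21. On the first of these, the 1X and 3X extract groups had means of 5.55 and 5.34, below that of AFFB.

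Ly6e, an interferon-inducible surface protein, read 10.31, 9.84, 9.99 and 9.83 on sitagliptin 1 to 4, and 9.53, 9.34, 9.42 and 9.52 on AFFB 1 to 4. It was the brightest of the 13 genes that were higher, and it differed by 0.54 ± 0.14, with 0.36 ± 0.16 on its second probe. Unc93b1, which carries nucleic acid sensing Toll-like receptors to endosomes, gave 5.52, 5.49, 5.32 and 5.23 on sitagliptin 1 to 4, and 4.98, 4.85, 4.64 and 4.40 on AFFB 1 to 4. For Unc93b1 the sitagliptin mean was 0.04 below water and the AFFB mean 0.71 below it, so the gap of 0.67 ± 0.17 lay on the AFFB side. Gbp3, an interferon-inducible GTPase, was likewise 0.65 ± 0.22 higher with sitagliptin, 0.04 below water in that group and 0.68 below water with AFFB. Of 15 measured interferon response genes 8 were higher, with a median of 0.00, and Rsad2, an antiviral enzyme, differed by -0.53 ± 0.25.

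Further genes higher with sitagliptin were Srd5a3 (0.54 ± 0.15), which makes the dolichol needed for protein glycosylation, Nrep (0.71 ± 0.21), Siah1a (0.59 ± 0.17), an E3 ubiquitin ligase, and Amdhd2 (0.55 ± 0.17), which recycles N-acetylglucosamine. Med19 (0.47 ± 0.14), a Mediator subunit, and Ppan (0.56 ± 0.17), a ribosome assembly factor, were higher as well, but a second Ppan probe differed by -0.34 and a second Med19 probe was detected on no sitagliptin array and 3 AFFB arrays. Poc1b (0.42 ± 0.13), a centriole protein, had 2 further detected probes, with differences of 0.05 and 0.06. Further Srd5a3 probes differed by 0.49 and 0.18, and a dim Amdhd2 probe by 0.10. Ncam1, an adhesion molecule, and Frat2, a regulator of Wnt signalling, were detected on no AFFB array, so their levels with sitagliptin were at least 1.13-fold and at least 1.05-fold higher. A second, dim Ncam1 probe differed by 0.00.

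Among genes lower with sitagliptin, Slc7a3, a transporter of cationic amino acids, measured 7.68, 7.99, 7.59 and 7.72 on sitagliptin 1 to 4, and 8.84, 8.05, 8.01 and 8.73 on AFFB 1 to 4. The groups were adjacent without overlap, and the difference was -0.67 ± 0.18. Sitagliptin lay 0.11 below water and AFFB 0.56 above it, and the 3 extract groups had means of 8.71, 8.72 and 8.85, above that of AFFB. A second, dim Slc7a3 probe differed by 0.06 ± 0.17.

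Gsta3, a glutathione transferase, was 4.44, 4.83, 4.63 and 4.34 on sitagliptin 1 to 4, and 5.18, 4.89, 5.27 and 5.54 on AFFB 1 to 4. Both Gsta3 probes were lower with sitagliptin without overlap, with differences of -0.66 ± 0.17 at these low levels and -0.61 ± 0.32 on a brighter probe, and neither passed. Gsta3 has close paralogs, and cross-hybridisation was not tested. The antioxidant and NRF2 target list as a whole had 10 of 19 genes higher and a median of 0.01.

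Other genes in that direction were Glt8d1 (-0.67 ± 0.20), a glycosyltransferase, Aste1 (-0.62 ± 0.18), Ddo (-0.55 ± 0.16), which oxidises D-aspartate, Fancl (-0.53 ± 0.16), the ubiquitin ligase of the Fanconi anaemia pathway, and Ahctf1 (-0.52 ± 0.15), a nuclear pore assembly factor. Brighter probes of Glt8d1 and Ahctf1 differed by less, -0.13 and -0.18, and further Ddo probes by -0.22, -0.14 and 0.02. Rdh7, a retinol dehydrogenase, and Ubn2, of a histone chaperone family, were detected on no sitagliptin array and were at least 1.29-fold and at least 1.15-fold lower with sitagliptin. A brighter Ubn2 probe differed by 0.08 and a second, dim Rdh7 probe by 0.06, both in the other direction.

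Detection itself separated few probes. There were 7 probes detected on all 4 sitagliptin arrays and no AFFB array, of which 6 are named: Olfr982, Srebf1, Srgap3, Mblac1, Abca17 and Traf4. Their levels were at least 1.04-fold to at least 1.15-fold higher with sitagliptin. The reverse held for 4 probes, of Stk19, Meis1, Marchf10 and Bicd2, which were at least 1.12-fold to at least 1.20-fold lower. All of these lie near the detection limit. A much brighter Meis1 probe differed by 0.07 and a further Stk19 probe by 0.05, both the other way. Another, dim Stk19 probe (-0.17) and brighter probes of Bicd2 (-0.26) and Traf4 (0.24 and 0.08) lay in the same direction, and a dim Traf4 probe did not (-0.23).

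Gene lists were read by the number of measured members above and below 0 and by their median, beside 4673 of all 9164 measured genes higher and a median of 0.00. Members of a list are not independent of each other, and the lists were not tested. No member of any of the 40 lists passed.

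Fatty acid oxidation genes and PPAR targets were lower with sitagliptin as a list. Of 18 measured genes 16 were lower and 2 higher, with a median of -0.32. The unadjusted limma p was under 0.05 for 5 of them, all lower (over all kept probes, 1.99% were lower at that p), and 3 (Acot1, Angptl4, Ech1) lay wholly below AFFB (1.12% of all kept probes). Beside those, Hadhb, the thiolase subunit of the enzyme complex that shortens long-chain fatty acids, differed by -0.58 ± 0.20, and Slc25a20, which carries acylcarnitines into mitochondria, by -0.61 ± 0.24. Eci1 (-0.33 ± 0.16), Acot2 (-0.31 ± 0.17) and Cpt2 (-0.27 ± 0.15), which act in mitochondrial oxidation, were lower by less. A second Cpt2 probe lay the other way, at 0.07 ± 0.13, and another at -0.24 ± 0.16. The exceptions among the 18 measured genes were Acadm, at 0.01, and Decr1. The latter was detected on 3 sitagliptin arrays and no AFFB array and was at least 1.03-fold higher.

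The list mean, with the water mean set to 0, was 0.02, -0.04, 0.09 and -0.23 on sitagliptin 1 to 4, and 0.65, 0.18, 0.17 and 0.71 on AFFB 1 to 4. All sitagliptin arrays lay below all AFFB arrays, and AFFB 1 and AFFB 4 were far above AFFB 2 and AFFB 3. The 4 arrays of the 0.1X extract ranged from 0.42 to 0.70, those of 1X from -0.20 to 0.22 and those of 3X from -0.16 to 0.58. Water arrays ranged from -0.24 to 0.21, which covers the sitagliptin arrays. Member medians were -0.01 for sitagliptin minus water and 0.33 for AFFB minus water, 2 comparisons that share the water arrays. Of 10 measured adipocyte markers 9 were higher with sitagliptin. Their list mean was -0.32 to 0.03 on sitagliptin arrays and -0.36 to -0.17 on AFFB arrays. Adipoq was detected on 2 sitagliptin arrays and 1 AFFB array, and Fabp4, Plin1 and Cidec did not pass the probe filter. The part of fat cells in the fatty acid oxidation values was not tested.

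**Figure D3:**
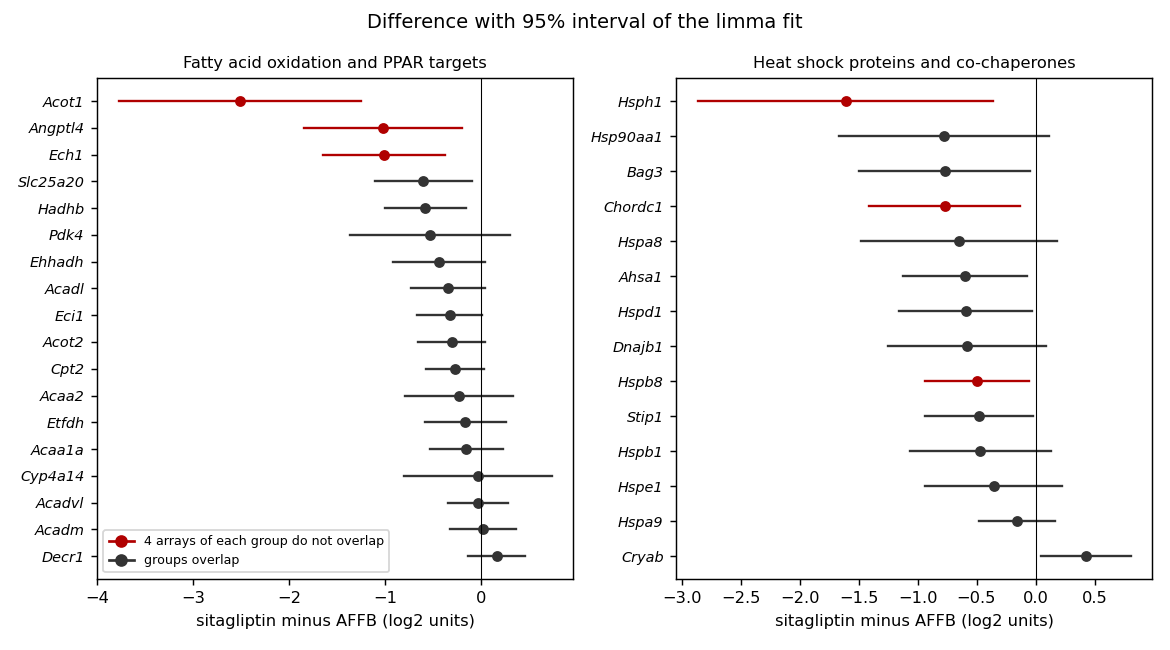
Difference (sitagliptin minus AFFB, log2 units) with its 95% interval from the limma fit for each measured fatty acid oxidation and PPAR target gene (left, 18 genes) and heat shock gene (right, 14 genes). Red marks the 3 genes in each list whose 4 sitagliptin and 4 AFFB arrays do not overlap, and 16 and 13 genes lie below 0. Pdk4, detected on no sitagliptin array, and Decr1, detected on no AFFB array, have no exact size.

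Fgf21, a hormone of the fasting response that PPAR alpha induces in liver and that acinar cells also make, was not on the list and was chosen after its values were seen. Its levels were 8.90, 9.03, 8.46 and 8.65 on sitagliptin 1 to 4, and 9.29, 9.76, 9.60 and 10.37 on AFFB 1 to 4. The groups did not overlap, and the difference was -0.99 ± 0.41. The water arrays read 8.91, 9.69, 8.48 and 10.02, across both groups. Pdk4, a PPAR target that restrains pyruvate oxidation, was detected on no sitagliptin array and on 2 AFFB arrays, at least 1.14-fold lower.

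Lipid synthesis ran the other way. Of 17 measured lipogenesis and sterol synthesis genes 14 were higher and 3 lower with sitagliptin, with a median of 0.16. Dgat2, which completes triglyceride synthesis, read 5.73, 6.00, 5.94 and 6.31 on sitagliptin 1 to 4, and 4.51, 4.94, 5.50 and 5.19 on AFFB 1 to 4. No AFFB array reached the lowest sitagliptin array, and the difference of 0.96 ± 0.40 did not pass. Dgat2 was 0.18 above water with sitagliptin and 0.78 below water with AFFB. Dgat1 (0.38 ± 0.25) and Sqle (0.49 ± 0.28), an enzyme of sterol synthesis, were higher within wide intervals, and Srebf1, the lipogenic transcription factor, was at least 1.12-fold higher. Without sitagliptin 4 the counts were 11 higher and 6 lower and the median was 0.08.

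Heat shock genes lay lower with sitagliptin as a list. Heat shock proteins bind unfolded proteins, and their genes are induced together by heat shock factor, which binds repeats of a short element in their promoters. Of 14 measured heat shock proteins and co-chaperones 13 were lower with sitagliptin and 1 higher, with a median of -0.59. At an unadjusted limma p under 0.05 there were 7 lower and 1 higher (1.99% and 2.17% of all kept probes), and Hsph1, Chordc1 and Hspb8 lay wholly below AFFB (1.12%).

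The promoter windows of 3 of these genes are shown because they hold the element for which the list is known. The windows are RefSeq sequence of build GRCm38.p6, from 250 bases before to 50 bases after the annotated start, 5′ to 3′ along the gene: Hsph1 at chr5:149636266-149636565 on the minus strand (1 of 2 Hsph1 windows with a match), Chordc1 at chr9:18292017-18292316 on the plus strand and Hspe1 at chr1:55087898-55088197 on the plus strand. Capitals mark matches to a heat shock element, searched as GAA, TTC and GAA with any 2 bases (NN) between neighbours, or on the other strand as TTC, GAA and TTC spaced alike, and matches may overlap.
Hsph1: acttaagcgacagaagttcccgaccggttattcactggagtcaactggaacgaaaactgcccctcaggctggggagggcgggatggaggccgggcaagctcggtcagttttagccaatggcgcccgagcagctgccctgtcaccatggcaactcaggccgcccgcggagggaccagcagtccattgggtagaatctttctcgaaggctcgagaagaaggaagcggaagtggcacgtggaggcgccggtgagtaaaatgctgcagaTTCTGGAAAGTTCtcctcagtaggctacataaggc
Chordc1: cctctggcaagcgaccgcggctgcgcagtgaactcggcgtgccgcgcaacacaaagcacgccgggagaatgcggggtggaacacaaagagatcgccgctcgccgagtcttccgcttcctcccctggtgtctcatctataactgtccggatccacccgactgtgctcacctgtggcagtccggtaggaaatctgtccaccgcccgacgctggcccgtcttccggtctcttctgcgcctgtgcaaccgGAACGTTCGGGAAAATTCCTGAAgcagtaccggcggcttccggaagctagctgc
Hspe1: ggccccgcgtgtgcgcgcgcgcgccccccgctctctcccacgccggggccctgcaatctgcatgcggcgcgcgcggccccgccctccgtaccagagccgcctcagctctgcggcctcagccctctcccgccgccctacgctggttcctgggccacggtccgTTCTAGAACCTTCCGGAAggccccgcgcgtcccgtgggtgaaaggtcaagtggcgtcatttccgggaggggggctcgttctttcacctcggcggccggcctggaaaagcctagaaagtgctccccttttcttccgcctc
Windows were found for 10 of the 14 measured heat shock genes, and 4 of the 10 held a match (40%), against 0.662% of all 27025 genes with a window. The matching genes were Hsph1, Chordc1, Hspe1 and Hspd1, and the last 2 have overlapping windows on opposite strands. A direct repeat of the kind that PPAR receptors bind, AGGNCA followed by any 1 base and AGGNCA again, was searched on both strands in 14 of the 18 fatty acid oxidation genes and matched none, against 0.451% of all genes. A match describes the sequence only.

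Hsph1, which helps the main cytosolic chaperone release its clients, measured 8.21, 6.90, 7.64 and 5.95 on sitagliptin 1 to 4, and 8.42, 9.58, 8.61 and 8.52 on AFFB 1 to 4. Sitagliptin 1 came close to the lowest AFFB array and sitagliptin 4 was far below. The difference was -1.61 ± 0.61. Chordc1, a co-chaperone of the heat shock response, gave 8.01, 7.62, 7.72 and 6.88 on sitagliptin 1 to 4, and 8.60, 8.51, 8.03 and 8.16 on AFFB 1 to 4, a difference of -0.77 ± 0.31. Sitagliptin 1 and AFFB 3 almost touched in this gene.

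Hspb8, a small heat shock protein, was 8.16, 8.21, 8.35 and 7.99 on sitagliptin 1 to 4, and 8.80, 8.89, 8.64 and 8.37 on AFFB 1 to 4. It differed by -0.50 ± 0.21 without sitagliptin 4 standing apart. Bag3 (-0.77 ± 0.35), a partner of small heat shock proteins, Hsp90aa1 (-0.78 ± 0.43), Hspa8 (-0.65 ± 0.40), Ahsa1 (-0.60 ± 0.25), Hspd1 (-0.59 ± 0.27) and Stip1 (-0.48 ± 0.22) lay in the same direction. A second, dimmer Hspd1 probe differed by 0.02 ± 0.36. Cryab, also a small heat shock protein, was the exception in the list at 0.42 ± 0.19.

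The heat shock list mean was 0.12, -0.26, -0.41 and -0.71 on sitagliptin 1 to 4, and 0.50, 0.13, 0.23 and 0.11 on AFFB 1 to 4. Sitagliptin 1 lay among the AFFB arrays and the other 3 lay below them. Water arrays gave 0.37, 0.12, 0.05 and -0.54. Clock gene levels moved with the lowest values. The core clock list mean was -0.44, -0.04, -0.45 and 0.42 on sitagliptin 1 to 4, and -0.34, -0.16, -0.17 and -0.02 on AFFB 1 to 4. Of the 24 arrays 5 had a clock list mean over 0.4 (sitagliptin 4, 1X 4, 3X 2, 3X 3 and water 4), and these 5 had the lowest heat shock list means, from -0.71 to -0.50. Sitagliptin 3, with a low clock list mean, stood at -0.41. Of the 5 arrays of high clock list mean, only sitagliptin 4 enters the comparison with AFFB. Without it 13 of the 14 genes were lower with sitagliptin, with a median of -0.48. With the core clock list mean as a covariate 13 of 14 genes were lower, with a median of -0.57 against -0.59 without it. The clock list mean averaged -0.13 in the sitagliptin group and -0.17 in the AFFB group. With group averages this close, the covariate could hardly move the difference, whatever the clock does. Genes of the clock list differed in both directions, so its mean is a rough measure of clock phase. The part of the clock in the heat shock values was not tested. The hour of tissue collection was not found in the labels.

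**Figure D4:**
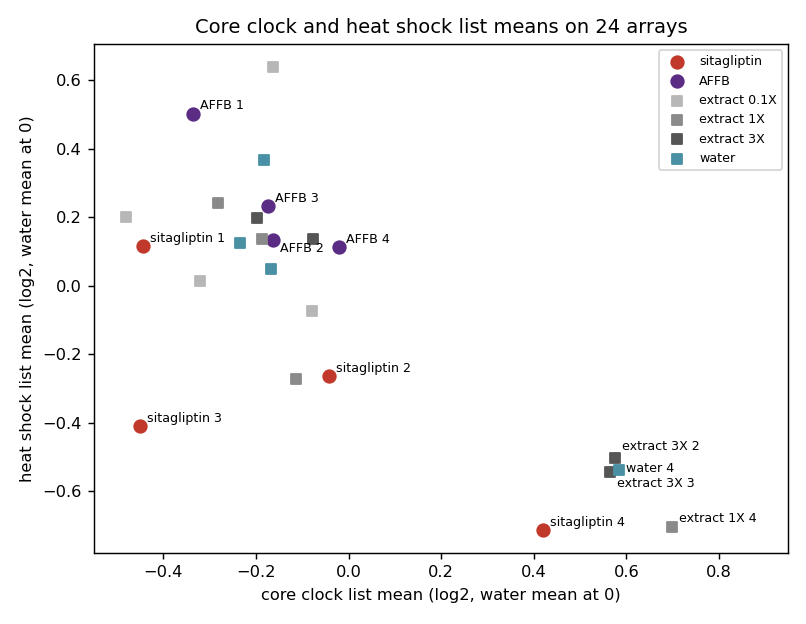
Mean of the core clock list (horizontal, 12 genes) and of the heat shock list (vertical, 14 genes) on each of the 24 arrays, in log2 units with the water mean at 0. The 5 arrays at the right, sitagliptin 4 among them, have heat shock list means of -0.71 to -0.50, and the 4 AFFB arrays lie between 0.11 and 0.50.

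Within the core clock list 8 genes were higher and 4 lower, with a median of 0.09, and without sitagliptin 4 there were 5 higher and 7 lower with a median of -0.03. Without AFFB 1 or AFFB 3 the median was 0.03 or 0.06. Per2, a repressor of the clock, was 8.17, 8.10, 8.15 and 7.98 on sitagliptin 1 to 4, and 8.58, 9.10, 8.39 and 8.84 on AFFB 1 to 4. It did not overlap between the groups on this probe, and its probes differed by -0.63 ± 0.22 and -0.64 ± 0.21. Cry2, another repressor, was 0.52 ± 0.19 higher. Dbp, an output of the clock with a wide daily swing, ranged from 5.88 to 10.98 among sitagliptin arrays and from 6.14 to 7.53 among AFFB arrays, so its difference of 0.96 ± 1.25 rests on sitagliptin 4. Cirbp, an RNA-binding protein induced by mild cold, was 0.73 ± 0.33 higher and was also highest on sitagliptin 4, at 6.28.

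Genes of the unfolded protein response, which serves protein folding in the endoplasmic reticulum, were lower in 19 of 24 cases, with a median of -0.14. Syvn1 (-0.83 ± 0.42), a ubiquitin ligase of protein degradation there, Creld2 (-0.70 ± 0.61) and Herpud1 (-0.41 ± 0.20) had large differences with wide errors, and none of the 24 had an unadjusted limma p under 0.05. The median was -0.03 without sitagliptin 3 and -0.30 without sitagliptin 1. Serine and one-carbon enzymes were lower in 11 of 12 cases, with a median of -0.12 (-0.04 without AFFB 1, -0.06 without sitagliptin 1, -0.18 without sitagliptin 2 and -0.19 without AFFB 2), led by the serine hydroxymethyltransferases Shmt2 (-0.41 ± 0.19) and Shmt1 (-0.39 ± 0.16). A second, dim Shmt2 probe differed by 0.02 ± 0.19.

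Glycolysis and gluconeogenesis enzymes were higher in 12 of 15 cases, with a median of 0.11. It was 0.05 without sitagliptin 3 (10 of 15 higher), 0.06 without AFFB 4 and 0.19 without AFFB 2. Pcx, pyruvate carboxylase, was 5.05, 5.42, 5.81 and 5.45 on sitagliptin 1 to 4, and 4.72, 4.94, 5.31 and 4.50 on AFFB 1 to 4, overlapping through sitagliptin 1 and AFFB 3. It differed by 0.56 ± 0.18. Ldha (0.42 ± 0.20), lactate dehydrogenase, and Aldoa (0.32 ± 0.15), aldolase, were higher. Fbp2, a fructose bisphosphatase, was -0.43 ± 0.16 and lay wholly below AFFB, as did 1.12% of all kept probes. None of these passed.

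The incretin axis itself showed little. Of 15 listed dipeptidyl peptidases, incretins and receptors 6 were measured, 4 higher and 2 lower, with a median of 0.03. Dpp4, which encodes the enzyme that sitagliptin inhibits, measured 5.02, 4.61, 4.40 and 5.14 on sitagliptin 1 to 4, and 4.39, 4.62, 4.55 and 4.46 on AFFB 1 to 4. It was detected on 2 sitagliptin arrays and no AFFB array. Its group mean was at least 1.07-fold higher with sitagliptin, but the groups overlapped. A second Dpp4 probe was detected on no sitagliptin array and 3 AFFB arrays. No measured gene of this list had an unadjusted limma p under 0.05. The receptor genes Glp1r and Gipr did not pass the probe filter.

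Islet hormone genes were all higher with sitagliptin, 6 of 6 with a median of 0.59, but each had overlapping groups. Ins2 was 12.28, 13.51, 12.80 and 13.63 on sitagliptin 1 to 4, and 12.87, 14.13, 11.01 and 12.96 on AFFB 1 to 4. AFFB 3 was the lowest of the 8 and AFFB 2 the highest. The difference was 0.31 ± 0.66 (95% interval -1.04 to 1.67). Gcg differed by 0.58 ± 0.83, Sst by 0.59 ± 0.74 and Ppy, pancreatic polypeptide, by 0.70 ± 0.42. Without AFFB 3 the list had 3 genes higher and 3 lower and a median of 0.04; without sitagliptin 4 the median was 0.21 and without AFFB 2 it was 1.06. The list of islet identity and secretory granule genes had 8 of 16 measured genes higher and 8 lower, with a median of -0.01. In bulk tissue, more islet cells in a piece of pancreas and more RNA per cell cannot be told apart. Pdx1, the beta cell and pancreatic transcription factor, differed by -0.02 ± 0.16.

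Digestive enzymes and zymogen granule proteins were evenly divided, with 14 of 28 higher and a median of 0.00. Of these 28 genes 26 had mean log2 intensities over 13, near the highest value on any array, 14.54. The Reg family, small secreted proteins of acinar injury and regeneration, had 5 of 6 genes higher and a median of 0.51, which became -0.14 without sitagliptin 1 and ranged up to 1.08, without sitagliptin 4, when other arrays were left out (0.19 without AFFB 4, 0.33 without AFFB 2 and 0.88 without AFFB 3). Reg2 measured 14.18, 9.75, 11.25 and 7.84 on sitagliptin 1 to 4, and 10.02, 9.48, 11.53 and 8.05 on AFFB 1 to 4. The spread inside each group exceeded the difference of 0.99 ± 1.21.

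**Figure D5:**
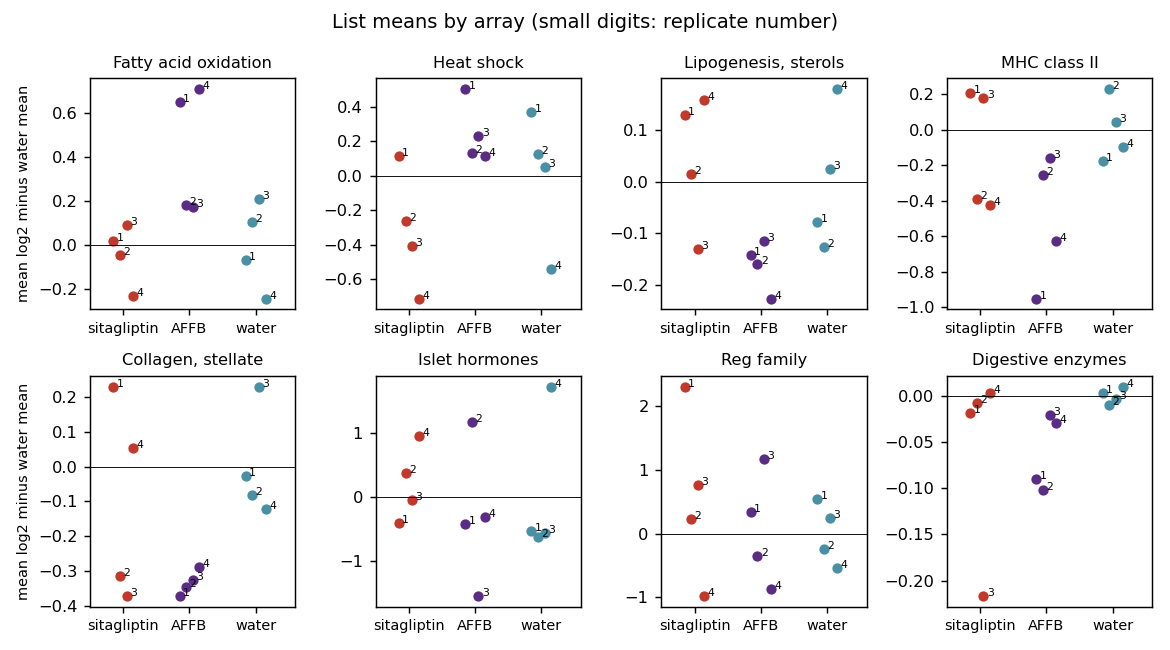
Mean of each of 8 gene lists on every sitagliptin, AFFB and water array, in log2 units with the water mean at 0; small digits are replicate numbers and each panel has its own axis. The fatty acid oxidation list separates the sitagliptin from the AFFB arrays without overlap, and the islet hormone and Reg lists spread widely inside each group.

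Genes of other cell types in the organ mostly lay slightly higher with sitagliptin. MHC class II genes, which present antigen, were higher in 6 of 6 cases with a median of 0.39, which was 0.23 without AFFB 1. Cd74, their invariant chain, read 8.19, 7.69, 7.55 and 7.35 on sitagliptin 1 to 4, and 6.75, 7.27, 7.75 and 6.76 on AFFB 1 to 4. The groups overlapped through AFFB 3, and the differences were 0.56 ± 0.35 for Cd74 and 0.52 ± 0.26 for H2-Aa. The list mean was -0.42 to 0.21 with sitagliptin and -0.95 to -0.16 with AFFB. Macrophage markers were higher in 8 of 13 cases and lower in 5, with a median of 0.23. None of the 13 had an unadjusted limma p under 0.05. Their list mean was -0.34 to 0.27 with sitagliptin and -0.42 to 0.10 with AFFB. Adgre1 and Cd68 did not pass the probe filter. T and NK cell markers were higher in 3 of 5 cases (median 0.02), and B and plasma cell markers in 1 of 3 (median -0.04). The part of macrophages in the MHC class II values was not tested.

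Collagen and stellate cell genes were higher in 12 of 15 cases, with a median of 0.12. Col6a1 (0.53 ± 0.25), Col6a2 (0.48 ± 0.20) and Lum (0.46 ± 0.21), matrix proteins, had an unadjusted limma p under 0.05 (over all kept probes, 2.17% were higher at that p). Col6a1 read 5.11 on AFFB 3, against 5.88 to 5.98 on the other AFFB arrays. A second, dim Lum probe differed by 0.03 ± 0.14. Col4a2, of basement membrane, differed by 0.61 ± 0.35. List means were 0.23, -0.31, -0.37 and 0.05 on sitagliptin 1 to 4, and -0.37, -0.34, -0.33 and -0.29 on AFFB 1 to 4. Sitagliptin 1 and sitagliptin 4 were the high arrays, and without sitagliptin 1 the counts were 8 higher and 7 lower with a median of 0.02. The median was 0.44 without sitagliptin 3, 0.32 without sitagliptin 2 and 0.22 to 0.23 without AFFB 2, 3 or 4. Duct markers were higher in 7 of 9 cases, with a median of 0.17 (0.27 without sitagliptin 3), among them Sox9, a duct transcription factor, by 0.46 ± 0.18 and by 0.51 ± 0.21 on a second probe.

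Erythroid markers were lower in 5 of 6 cases, with a median of -0.43, which was -0.17 without sitagliptin 2 and -0.24 (4 of 6 lower) without AFFB 3. Hba-a1, alpha globin, was 11.16, 9.35, 10.51 and 10.77 on sitagliptin 1 to 4, and 10.89, 11.23, 11.50 and 10.20 on AFFB 1 to 4. These groups overlapped widely, and neither Hba-a1 (-0.51 ± 0.44) nor Alas2 (-0.51 ± 0.32), the haem synthesis enzyme of red cell precursors, had an unadjusted limma p under 0.05. Endothelial markers were higher in 8 of 9 cases with a median of 0.15, which was 0.01 without AFFB 2, 0.05 without sitagliptin 4 and 0.09 without sitagliptin 1 or AFFB 3.

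Genes followed for their behaviour in the berry groups completed the comparison. They, and Kdsr given last, were chosen with earlier results of these same arrays known. Their distance from water with AFFB is therefore a description and follows in part from the choice. Azgp1, a secreted glycoprotein, was 7.87, 8.33, 8.69 and 7.78 on sitagliptin 1 to 4, and 9.06, 8.35, 8.65 and 8.81 on AFFB 1 to 4, a difference of -0.55 ± 0.18 with overlapping groups. It stood 0.01 above water with sitagliptin and 0.56 above water with AFFB. Reep6, of endoplasmic reticulum shaping, differed by -0.62 ± 0.32, at 0.22 and 0.84 above water in the sitagliptin and AFFB groups. Cobl, an actin nucleator, was higher with sitagliptin by 0.57 ± 0.19, at 0.05 below water against 0.63 below water with AFFB. A second, dim Cobl probe differed by -0.06 ± 0.16. Adh1, alcohol dehydrogenase, was 6.96, 7.13, 6.90 and 7.19 on sitagliptin 1 to 4, and 6.67, 6.55, 6.75 and 6.77 on AFFB 1 to 4, without overlap. Both groups lay below the water arrays for Adh1, by 0.38 with sitagliptin and 0.74 with AFFB, and the gap of 0.36 ± 0.20 between them did not pass.

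Kdsr, an enzyme of sphingolipid synthesis, had the smallest adjusted p of AFFB against water, 0.0742 in limma, on its dimmer probe. On that probe it measured 4.79, 4.85, 4.51 and 4.95 on sitagliptin 1 to 4, and 4.43, 4.57, 4.73 and 4.62 on AFFB 1 to 4. Sitagliptin lay 0.60 and AFFB 0.79 below water, and the 2 treated groups overlapped, with a difference of 0.19 ± 0.14. The brighter Kdsr probe differed by 0.28 ± 0.21 between sitagliptin and AFFB.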

How the data were processed

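Pancreas RNA was hybridised to Illumina bead arrays. The deposited table holds, per the file headers, a linear signal intensity and a detection p-value of 45281 probes on each of 24 arrays. The authors' normalized log2 values were also deposited, made with R 3.1.2 and limma 3.22.1 per the submitters' processing notes, and served as a check. No source used here names the scanner software.

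Intensities were corrected for background through the detection p-values, quantile normalized and put on the log2 scale with neqc (offset 16; limma 3.58.1, R 4.3.3). Probes with a detection p under 0.05 on 4 or more arrays were kept: 13086 with 1 gene symbol in the platform annotation, 8 with several and 2234 with none. One limma fit of 6 group means took all 24 arrays. Tests were two-sided, and passing means a Benjamini-Hochberg adjusted p under 0.05 over all 15328 probes. Errors given with a difference are standard errors of that fit, and precision is limited by the 4 arrays of each group. For a probe undetected throughout a group, only a least fold is given: the brighter group's mean over the mean of whichever was higher on each dim array, the probe itself or the dimmest detected probe. A least fold compares group means, carries no standard error and does not mean that the groups were separate.

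The comparison, the gene lists and a gene panel were chosen with earlier results of these data known. The rule named the 24 genes of smallest unadjusted p, up to 3 genes of smallest p per list, the panel, and up to 6 genes per direction among probes detected on all arrays of one group and none of the other. Other list members, Fgf21, Mrpl53 and the unnamed probe were picked after their values were seen. Lists use each gene's brightest kept probe.

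In 10 simulations with 200 of 15328 probes changed, the sitagliptin minus AFFB test recovered 21.8% of changes of 0.5 log2 units, 82.4% of changes of 1 and 99.1% of changes of 2. Noise was drawn as normal and independent for each probe, without outlying arrays or variation shared between probes. The 200 changed probes also ease the adjusted threshold. Recovery in the real arrays may therefore be lower. Alternatives varied the background correction, scaling, filter, variance model, covariates and arrays, leaving out each array in turn.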

Additional observations from a re-analysis of the deposited data

Results flagged for a closer look

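Among 220 sets of 4 values examined (named genes and array measures, in the sitagliptin and AFFB groups), 9 held an array that lay far from the other 3 by Dixon's test, which chance flags in about 1 of 20 groups. For Mrpl53, a mitochondrial ribosomal protein, AFFB 1 read 4.37 while the other 3 AFFB arrays read 8.47 to 9.25. Hsph1 was high on AFFB 2, at 9.58, Hsp90aa1 was high on AFFB 1, at 7.63, and Hspd1 was low on AFFB 2, at 8.29. Gbp3 was low on AFFB 1, at 4.50, and Col6a1 was low on AFFB 3, at 5.11. Amy2a5 was low on AFFB 1, at 13.99. Per3, detected on none of the 8 arrays, was high on AFFB 4, at 4.57. Sitagliptin 3 stood at 33.7 on the first principal component, against -13.1 to -8.93 for the other sitagliptin arrays. The causes were not tested.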

How the results depend on the processing

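In sitagliptin minus AFFB 0 probes passed under each of 29 alternatives in limma. The smallest adjusted p was 0.0897, with the 8 arrays fitted alone, and 447 to 993 of the same 15328 probes had an unadjusted p under 0.05 (993 without the 3 arrays far out on the first principal component). Sitagliptin minus water gave 0 under each of 28 alternatives. AFFB minus water gave 1 with the core clock list mean as a covariate, and 0 to 1 when each array was left out, the 1 without water replicate 3. Same-numbered sitagliptin and AFFB arrays did not deviate together (correlations of 0.20, -0.35, -0.03 and 0.24), so the numbers were not taken as pairs; with the replicate number as a block, 0 probes passed and 667 had an unadjusted p under 0.05.

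Of 109 genes followed singly 99 kept their sign under every alternative run and 10 did not, none of which had passed. Some alternatives cannot move a difference: the filters, the trended and robust variance models, the replicate block, and leaving out only water or extract arrays. They do not check a sign. One of the 10, Per3, was detected on no sitagliptin or AFFB array, so its values have no meaningful size or sign. When each array was left out in turn, Amy2a5 ranged from -0.0201 to 0.10, Dbp from -0.10 to 1.60, Gcg from -0.0570 to 1.13, Iapp from -0.21 to 0.51, Ins2 from -0.26 to 0.78, Pdx1 from -0.10 to 0.0515, Per3 from -0.0245 to 0.14, Reg2 from -0.16 to 1.96 and Reg3b from -0.15 to 1.55. Of the 5 arrays of high clock gene level, only sitagliptin 4 enters the difference. Without them Dbp was -0.10, Iapp -0.21, Pdx1 0.0515 and Per3 -0.0245, as without sitagliptin 4 alone. Median scaling gave 0.00328 for Pdx1 and -0.00352 for Per3, no background correction gave -0.00140 for Per3, covariates for adipocyte and B cell markers gave 0.0275 for Pdx1, and Reg1 was 0.0310 without the 3 outlying arrays. The causes were not tested.

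The heat shock list had 1 of 14 genes higher under each of 28 alternatives, with medians of -0.67 to -0.41, and the fatty acid oxidation list 1 to 4 of 18, with medians of -0.41 to -0.16. These 28 include the alternatives that cannot move a difference. Among these, the filters could only change which members were measured (16 fatty acid oxidation genes with detection on at least 12 arrays). Neither compression near background nor saturation at the top of the scale was tested.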
